A study of Homo sapiens with 27 samples.

Results

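LN-229 is an established human glioblastoma cell line, and the cells described here carried an introduced MGMT gene. They were exposed 3 times, at intervals of 4 h, either to 1 mM temozolomide (TMZ) in growth medium or to the solvent control, 1% DMSO. DNA was taken 24 h after the first exposure. Each arm had 3 libraries, which makes 6 of the 27 libraries in the series, chosen by their labelled genotype, agent and number of exposures and by no measured value. The design text calls them biological replicates and names no separate cultures, so p-values measure the spread between these libraries. Each library pools many cells, so more lesions per cell and more cells with lesions cannot be told apart. The labels do not say which promoter drives MGMT or whether the transfected line is a single clone, and both arms share the transfection. Naked DNA exposed to 1 mM TMZ (3 libraries) served as a reference without cells. Its replicate 1 is labelled as DNA of wild-type cells without transfection, replicate 2 as wild-type and replicate 3 as MGMT-transfected, so these 3 differ in source and their spread is not that of like replicates. In addition, LN-229 cells labelled wild-type, the transfection control line, received the same 3 exposures.

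TMZ breaks down in water to a methylating agent. The methyl group lands on several positions of DNA bases, and O6-methylguanine is the product that pairs with thymine and drives mutation and cell killing. MGMT is the repair protein that takes the methyl group off O6-methylguanine in a single step and is used up in doing so, while mismatch repair acts on the mispairs that remain. In the assay, called O6-MeG-seq, sheared DNA fragments bearing O6-methylguanine were enriched with an antibody, and the position was read from the point where DNA synthesis by a high-fidelity polymerase stopped. Each library is therefore a list of marked positions, each with its strand and base. A position appears once however many molecules carried it, so the lists hold sites and not reads.

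The 3 promoters below are shown because they carried the most marked guanines under TMZ. All 15100 protein-coding promoters with a sequence in the RefSeq table (GRCh38.p14) were ranked by the marked guanines of the 3 TMZ libraries in the 250 bases before the gene start. The ranking used the TMZ lists and is a description. Sequences run 5′ to 3′ on the gene's strand. A capital G was marked on the gene's strand in at least 1 TMZ library, and a capital C stands opposite a guanine marked on the other strand.
SF1: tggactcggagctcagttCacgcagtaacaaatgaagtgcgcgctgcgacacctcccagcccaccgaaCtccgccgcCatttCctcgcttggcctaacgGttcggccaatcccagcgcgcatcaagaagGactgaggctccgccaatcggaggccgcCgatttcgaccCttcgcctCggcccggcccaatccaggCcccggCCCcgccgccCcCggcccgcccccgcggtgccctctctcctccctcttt
ZNF451: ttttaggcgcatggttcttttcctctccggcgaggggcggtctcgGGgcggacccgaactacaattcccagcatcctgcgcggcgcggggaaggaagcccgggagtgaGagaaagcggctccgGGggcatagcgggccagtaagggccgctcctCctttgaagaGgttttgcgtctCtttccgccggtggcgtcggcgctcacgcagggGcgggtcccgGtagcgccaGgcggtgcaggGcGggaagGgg
TMED1: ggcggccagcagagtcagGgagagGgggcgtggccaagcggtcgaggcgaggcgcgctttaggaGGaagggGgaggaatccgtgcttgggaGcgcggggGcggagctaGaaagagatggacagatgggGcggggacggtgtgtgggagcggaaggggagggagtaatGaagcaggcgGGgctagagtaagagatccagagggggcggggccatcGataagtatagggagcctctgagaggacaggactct
SF1, which binds the branch point during splicing, lies on the minus strand and its window is chr11:64778543-64778792. ZNF451, a zinc finger SUMO ligase, is on the plus strand at chr6:57089938-57090187. TMED1, a protein of the early secretory pathway, is on the minus strand at chr19:10835741-10835990. SF1 had 3, 7 and 6 marked guanines in TMZ replicates 1, 2 and 3, ZNF451 had 2, 7 and 5, and TMED1 had 1, 7 and 5. None of the 3 solvent libraries marked a guanine in any of these windows, and the 3 naked DNA libraries together marked 15 in SF1, 6 in ZNF451 and 8 in TMED1. Of the distinct marked guanines, 10 of 15 in SF1, 13 of 14 in ZNF451 and 11 of 13 in TMED1 followed a purine. Marks lay on 1 strand for the most part: 13 of 15 opposite the gene in SF1, 12 of 14 on the gene's strand in ZNF451 and 13 of 13 in TMED1. These counts were not set against the guanines that each strand holds. Even these windows were thinly marked, with 13 to 15 of 162 to 170 guanines on both strands. Over all 15100 windows the 3 TMZ libraries together marked a mean of 1.87 guanines and the 3 solvent libraries 0.146.

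The libraries differed in size. The TMZ lists held 5284529, 8682648 and 4702141 sites in replicates 1, 2 and 3 after restriction to chromosomes 1 to 22 and M and to a deposited score of 30 or more, and the solvent lists held 3084946, 3088974 and 1382408. Sites at bases other than guanine that recurred in a pair of libraries tied some libraries together. TMZ replicate 1 and solvent replicate 1 shared them 3.89 times as often as the median pair of libraries, and TMZ replicate 2 did so with TMZ replicate 3 (2.02 times) and with solvent replicate 2 (1.69 times). TMZ replicate 3 and solvent replicate 2 had no such direct tie (0.886 times) and belong to 1 set only through TMZ replicate 2. Within-set values below compare replicate 1 of both arms, and TMZ replicates 2 and 3 with solvent replicate 2; without TMZ replicate 3 the latter differences were 42.3 points for guanine share, 23.5 points for 5′ purines and 0.14 for the gene-body log2 ratio. Solvent replicate 3 stood in a set without TMZ. An exact two-sided permutation test over 3 libraries against 3 cannot give a p below 0.1, so no single value can pass 0.05. The 44 values adjusted together, and the further ones given without an adjusted p (pairs on the autosomes alone, and comparisons with naked DNA and wild-type cells), are read by whether the libraries overlapped.

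Guanine was the base marked most often under TMZ and among the less frequent ones under solvent. It made up 52.5%, 61.7% and 60.3% of sites in TMZ replicates 1, 2 and 3, and 22.1%, 19.3% and 18.998% in solvent replicates 1, 2 and 3. The 3 TMZ libraries all lay above the 3 solvent libraries, with TMZ replicate 1 the lowest of its arm. The means were 58.2% ± 4.93 (SD, n = 3) and 20.2% ± 1.71 (SD, n = 3) and lay 38.0 points apart (p = 0.1 by the two-sided exact permutation test, adjusted p = 0.116). Within sets the difference was 30.4 points for replicate 1 and 41.6 points for the other set. Counting error of a share was below 0.07 points in each library (95% Wilson interval, which covers counting only).

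The other 3 bases took smaller shares under TMZ, with no overlap between arms. Adenine stood at 16.1% ± 0.856 under TMZ and 27.6% ± 0.614 under solvent (SD, n = 3 each). Thymine stood at 16.7% ± 2.44 and 32.8% ± 0.101, and cytosine at 8.98% ± 1.66 and 19.4% ± 1.34 (SD, n = 3 each). Guanine sites per site at cytosine or thymine were 1.73, 2.71 and 2.51 in the TMZ libraries and 0.435, 0.364 and 0.360 in the solvent libraries, 6.003-fold apart in the means. The ratio of adenine to thymine sites was also higher under TMZ (0.878, 1.04 and 1.01, against 0.821, 0.837 and 0.863), and higher again in naked DNA (1.95, 1.56 and 1.53).

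Naked DNA exceeded the TMZ-exposed cells in guanine share. Its 3 libraries held 70.9%, 68.2% and 67.8%, above all 3 TMZ libraries (exact two-sided permutation p = 0.1). In wild-type cells the guanine share was 62.1% ± 2.24 after the same 3 exposures and 20.8% ± 2.45 with solvent (SD, n = 3 each), 41.3 points apart, beside 38.0 points in MGMT cells. The difference between these responses was -3.26 points (p = 0.45 by a two-sided exact permutation of genotype within each arm), which does not show that they are equal.

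**Figure D1:**
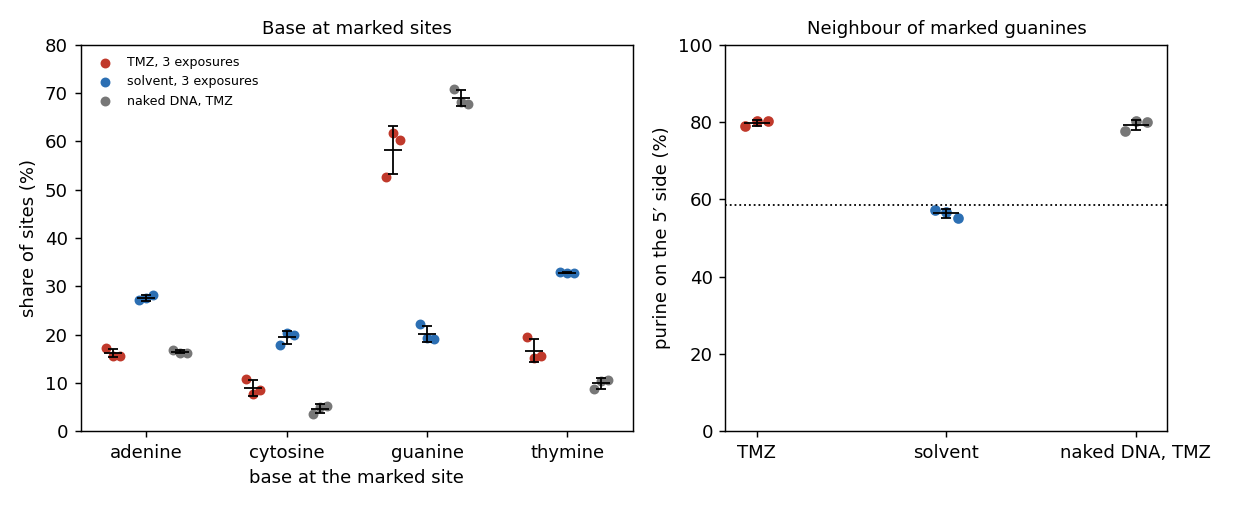
Left, share of sites (%) at each base for the MGMT cells with TMZ, the MGMT cells with solvent and naked DNA with TMZ; right, share of marked guanines (%) with a purine on the 5′ side, in RefSeq promoter windows. Points are libraries, bars are mean ± SD (n = 3) and the dotted line is the purine share before all guanines of those windows (58.4%); guanine stands at 58.2% under TMZ and 20.2% under solvent, and the purine share at 79.8% and 56.3%.

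The base on the 5′ side of the marked guanine also separated the arms. It could be read where RefSeq gives the sequence, in 33725 promoter windows of 300 bases, where the deposited base matched the reference letter at 100% of sites in every library. These windows held 14350, 31410 and 16761 marked guanines with a known neighbour in TMZ replicates 1, 2 and 3, and 2222, 2158 and 882 in the solvent replicates. A purine preceded 78.9%, 80.2% and 80.2% of marked guanines under TMZ and 57.2%, 56.7% and 55.1% under solvent. The solvent libraries stood just below the 58.4% found before all guanines of the same windows, and the TMZ libraries far above it. The difference of the means was 23.4 points (exact two-sided permutation p = 0.1, adjusted p = 0.116), 21.7 points within the set of replicate 1 and 23.5 points within the other set.

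Both purines contributed. Guanine preceded 47.9% ± 1.54 of the marked guanines under TMZ and 30.9% ± 0.417 under solvent, where 33.1% of available guanines have it. Adenine preceded 31.9% ± 0.964 and 25.4% ± 1.10, against 25.3% available. Cytosine preceded 9.53% ± 0.0294 under TMZ, 18.6% ± 0.768 under solvent and 18.9% of available guanines, and thymine 10.7% ± 0.780, 25.03% ± 0.957 and 22.7% (SD, n = 3 for each arm). Each of these 4 shares separated the arms without overlap. On the 3′ side, cytosine followed 29.9% ± 1.65 of marked guanines under TMZ and 23.4% ± 1.48 under solvent (SD, n = 3 each), where 29.9% of available guanines have it, so the solvent libraries were the ones away from availability. Guanine followed 38.2% ± 1.04 and 37.8% ± 0.821 (SD, n = 3 each), which overlapped and lay above the 33.1% available.

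Naked DNA had a similar 5′ neighbour. A purine preceded 77.7%, 80.1% and 79.9% of its marked guanines and overlapped with the TMZ libraries (exact two-sided permutation p = 0.5), although its guanine share was higher. The 3′ neighbour of marked guanines did separate naked DNA from the TMZ libraries, without overlap for cytosine, guanine and adenine. Cytosine followed 26.96% ± 0.257 in naked DNA and 29.9% ± 1.65 under TMZ. Guanine followed 40.2% ± 0.377 and 38.2% ± 1.04, and adenine 17.5% ± 0.348 and 16.5% ± 0.656 (SD, n = 3 each). The exact two-sided permutation p was 0.1 for each of these bases, and the shares of thymine overlapped. Sites at adenine differed in their 3′ neighbour. Where the marked base was adenine, the next base was guanine in 49.2%, 63.4% and 59.0% of window sites in the TMZ replicates, 40.5%, 43.9% and 42.4% in the solvent replicates and 59.1% ± 1.28 (SD, n = 3) in naked DNA. Guanine followed cytosine sites in 35.6%, 40.3% and 40.5% under TMZ and 30.2%, 33.2% and 32.2% under solvent, and thymine sites in 38.0%, 47.6% and 40.2% against 36.3%, 36.8% and 36.8%, with no overlap for either base.

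With both neighbours considered, the contexts split by the 5′ base. Rates are marked guanines over available guanines, divided by the library's own mean. By the mean of the 3 TMZ libraries, the least marked contexts were TGA (0.34, 0.28 and 0.30 in replicates 1, 2 and 3) and CGA (0.34, 0.29 and 0.36). The most marked by the mean were GGT (1.48, 1.90 and 1.54) and GGG (1.47, 1.66 and 1.54), although GGC stood above both in replicates 1 and 3. All 8 contexts with a pyrimidine before the guanine stood below the solvent libraries without overlap. TGA under solvent was at 0.97, 0.86 and 1.04, and TGT, at 1.41, 1.31 and 1.36 under solvent, was at 0.42, 0.34 and 0.34 under TMZ. GGC differed most among purine contexts, at 1.52, 1.43 and 1.55 under TMZ and 0.68, 0.72 and 0.60 under solvent. GGT and AGT overlapped between arms, as did AGA.

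A second base on each side widened the range of rates. Of the 256 five-base contexts with guanine in the centre, AGGGT was marked most under TMZ, at 2.23 ± 0.214 times the mean rate, followed by AGGTA (2.07 ± 0.274), AGGTC (2.01 ± 0.249) and GAGGT (2.01 ± 0.0612) (SD, n = 3 each). ATGAT was the lowest at 0.173 ± 0.00250, with GTGAT at 0.184 ± 0.0542 (SD, n = 3 each). In naked DNA, AGGGT stood at 2.10 ± 0.141 and ATGAT at 0.280 ± 0.110 (SD, n = 3 each). Across the 256 contexts the TMZ means correlated with naked DNA at Pearson r = 0.956 and with solvent at r = 0.013. These are correlations across contexts of the same windows, which are not independent replicates. Single TMZ libraries correlated with each other at 0.839 to 0.909, and with single naked DNA libraries at 0.876 to 0.935. Solvent libraries held few guanines per context and correlated with each other only at 0.115 to 0.225.

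**Figure D2:**
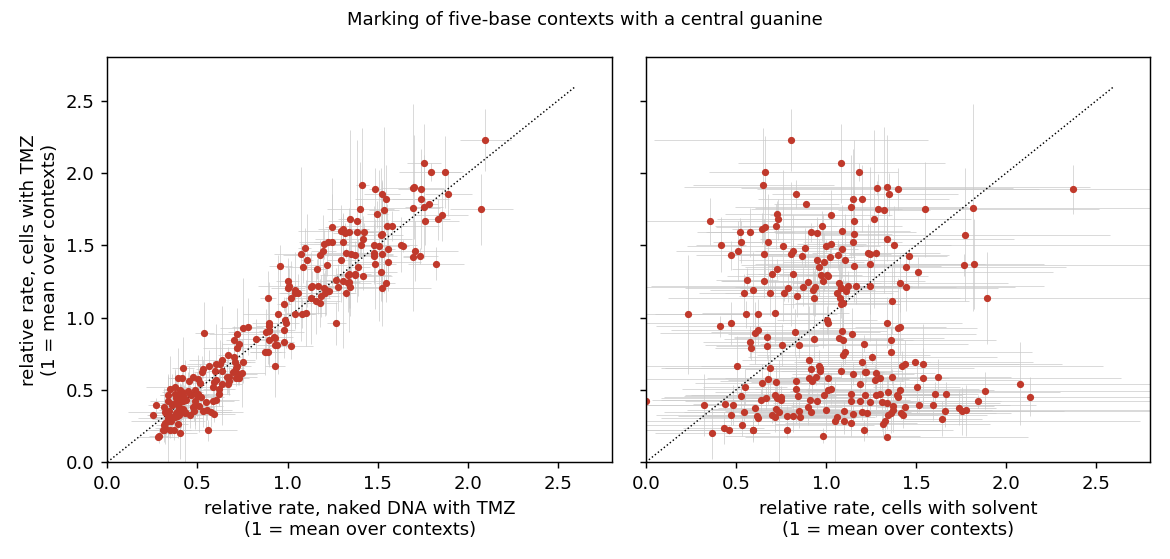
Marking rate of each of 256 five-base contexts with a central guanine in MGMT cells with TMZ, against naked DNA with TMZ (left) and MGMT cells with solvent (right), each relative to the mean over contexts. Points are means of 3 libraries, bars are SD and the dotted line marks equal rates; the points follow the line on the left (r = 0.956) and scatter on the right (r = 0.013).

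Few positions were marked again in a second library. Under TMZ, 10728608 guanine positions on the autosomes were marked in 1 library, 111822 in 2 and 1192 in all 3, and under solvent 1532331, 1756 and 2. A pair of TMZ libraries shared 0.735% to 1.90% of either list. With chromosome M, the TMZ lists held 2776340, 5353984 and 2836517 guanine sites and the solvent lists 682471, 597636 and 262637. The recurrence counts were not adjusted for list size. A single solvent list held only 0.0418% to 0.386% of the guanine sites of a TMZ list, so most TMZ positions were absent from solvent in any case. Of the positions marked in all 3 TMZ libraries, 1174 were marked in no solvent library. Only 3 of these lay in promoter windows with 10 bases known on each side, and 1 guanine marked in at least 2 solvent libraries and no TMZ library did so. They are printed to show single lesion sites, with the marked guanine as the only capital, 5′ to 3′ on the marked strand (RefSeq, GRCh38.p14).
PSMB9: aggcggcgagGagagcggtgc
GOT1-DT: aggtcgaaagGtggcctctca
LOC105373014: acgttgttagGgaaggacaag
LOC105371389: agtaggcagcGctgttgcctc
The PSMB9 window is chr6:32854200-32854220 on the plus strand, with its marked guanine 18 bases after the start of this immunoproteasome subunit gene. The GOT1-DT window is chr10:99430956-99430976 on the minus strand, and the LOC105373014 window is chr22:34757489-34757509 on the plus strand. The LOC105371389 window, marked under solvent, is chr16:86049497-86049517 on the plus strand. The 3 TMZ guanines each follow a purine and were each marked in 2 of the 12 further libraries of TMZ-exposed cells or naked DNA, while the solvent guanine follows cytosine and was marked in 0 of 12. A set of 4 sites chosen by where it was marked is an illustration only.

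At equal list size, close pairs of marked guanines were less frequent under TMZ, and most of the size of that difference lay on chromosome M. Each library was reduced to 262637 guanine sites, the number in solvent replicate 3. The next marked guanine on the same strand lay within 10 bases for 0.127%, 0.125% and 0.140% of guanine sites in TMZ replicates 1, 2 and 3 and for 0.340%, 0.281% and 0.529% in the solvent replicates. The arms did not overlap (exact two-sided permutation p = 0.1, adjusted p = 0.116), and the mean difference was -0.253 points. Chromosome M held 20.4%, 7.60% and 14.99% of these close pairs under TMZ and 58.8%, 55.6% and 69.8% under solvent. On the autosomes alone the shares were 0.101%, 0.116% and 0.119% under TMZ and 0.141%, 0.125% and 0.161% under solvent. These did not overlap either, but the difference of means was only -0.0303 points (exact two-sided permutation p = 0.1). Naked DNA stood at 0.105% ± 0.00565 (SD, n = 3) and overlapped with the TMZ libraries. Without the reduction in depth, and with chromosome M, the order turned, at 1.15%, 2.35% and 1.32% under TMZ against 0.737%, 0.544% and 0.529%. Pairs on opposite strands within 10 bases stood at 0.108% ± 0.00490 under TMZ and 0.298% ± 0.0738 under solvent with chromosome M, and at 0.0961% ± 0.00896 and 0.103% ± 0.0114 without it (SD, n = 3 each). Without it the arms overlapped (exact two-sided permutation p = 0.5).

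The distance between the members of a pair was then examined on the autosomes. Counts of pairs at each distance were set against the mean over 300 and up to 400 bases in the same library. Dropping sites at random lowers both counts by the same factor on average, but the solvent lists were the smaller ones in these 6 libraries, and the part of list size in the ratios was not tested. At a distance of 2 bases on the same strand, TMZ replicates 1, 2 and 3 held 1.30, 1.36 and 1.48 times that mean and the solvent replicates 3.97, 2.76 and 4.199 (exact two-sided permutation p = 0.1). Naked DNA held 1.62, 1.43 and 1.44 times, overlapping with TMZ. The solvent values rest on 556, 241 and 75 pairs, and the TMZ values on 2410, 9555 and 2954. Directly adjacent guanines were enriched in every library, at 3.12, 4.05 and 3.95 under TMZ, 2.62, 2.70 and 3.30 under solvent and 3.45, 3.36 and 3.27 in naked DNA. The arms overlapped there (exact two-sided permutation p = 0.2), while with chromosome M included they did not (2.84, 3.84 and 3.57, against 1.80, 2.03 and 1.90). At 3 bases the arms overlapped on the autosomes as well. At 4 bases they did not, at 1.48, 1.66 and 1.53 under TMZ and 2.39, 2.26 and 3.02 under solvent, nor at some longer distances. On opposite strands, pairs at 1 base were below the mean in all 9 libraries, at 0.802, 0.690 and 0.739 under TMZ, 0.562, 0.639 and 0.658 under solvent and 0.585 ± 0.00186 (SD, n = 3) in naked DNA. TMZ was the highest of the 3 groups without overlap (exact two-sided permutation p = 0.1 against each).

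**Figure D3:**
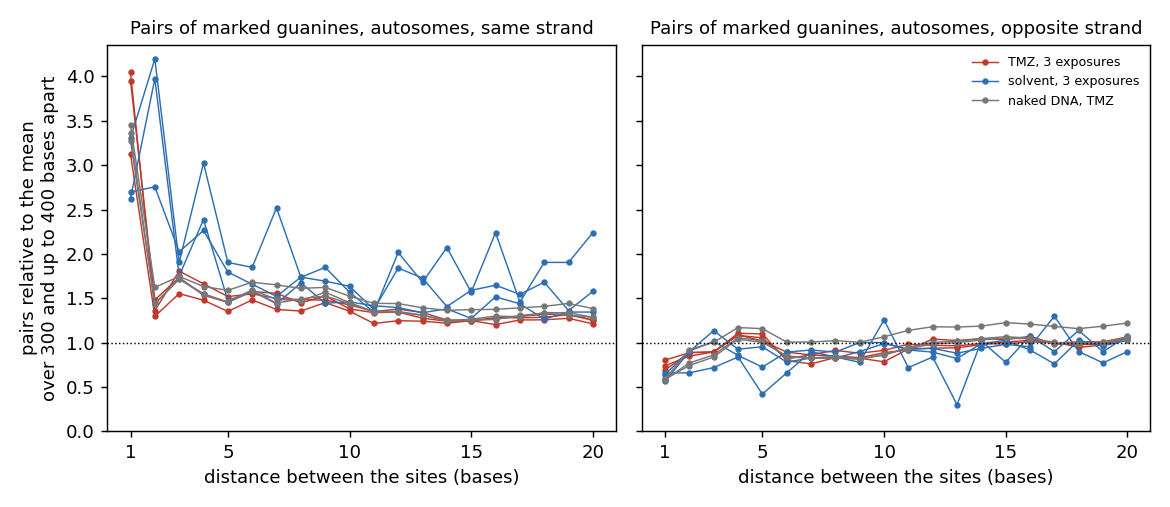
Pairs of marked guanines on the autosomes at distances of 1 to 20 bases, relative to the mean over 300 and up to 400 bases, on the same strand (left) and on opposite strands (right); each line is a library. At 2 bases on the same strand the TMZ lines stand at 1.30 to 1.48 and the solvent lines at 2.76 to 4.199, at 1 base they overlap, and at 1 base on opposite strands all 9 lie below 1.

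Gene bodies held more marked guanines per base than the rest of the autosomes, under TMZ more so than under solvent. Over 19122 protein-coding genes the density ratio to intergenic DNA was 1.29-fold, 1.32-fold and 1.32-fold in TMZ replicates 1, 2 and 3 and 1.17-fold, 1.20-fold and 1.19-fold in the solvent replicates. On the log2 scale the means were 0.39 ± 0.021 and 0.25 ± 0.022 (SD, n = 3 each), a difference of 0.14 (exact two-sided permutation p = 0.1, adjusted p = 0.116), and 0.14 in both sets. The solvent part depended on the score minimum: with none, the log2 ratios were 0.20, 0.27 and 0.23 under TMZ and -0.056, 0.089 and 0.072 under solvent, so that solvent replicate 1 fell below intergenic DNA. Sites at cytosine and thymine, which cannot carry O6-methylguanine, had the same order: their log2 ratio was 0.31 ± 0.031 under TMZ and 0.21 ± 0.019 under solvent (SD, n = 3 each). The guanine ratio minus this ratio was 0.085, 0.103 and 0.062 under TMZ and 0.041, 0.048 and 0.041 under solvent, so 0.040 of the difference was left. In promoter windows, cytosine and thymine sites preceded a guanine more often under TMZ, as given above. Whether some of these sites are linked to that guanine was not tested, so 0.040 need not be all that is particular to guanine. Naked DNA gave 0.39 ± 0.022 (SD, n = 3) and overlapped with the TMZ-exposed cells (exact two-sided permutation p = 0.9).

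Marks per base peaked at gene starts under TMZ. Densities here and over gene bodies were not corrected for the guanines available, and the part of base composition was not tested. In the first 500 bases after 15100 gene starts, guanine sites were 1.53, 1.72 and 1.69 times as dense as 2500 to 3000 bases away in TMZ replicates 1, 2 and 3. The solvent replicates showed no such peak, at 0.965, 0.988 and 1.14. Cytosine and thymine sites were at 1.13, 1.17 and 1.45 under TMZ and dipped to 0.734, 0.786 and 0.770 under solvent. Guanine thus stood above cytosine and thymine in every library, and both kinds of site were higher under TMZ. Naked DNA had the highest guanine peak of the groups compared at 1.82 ± 0.117 (SD, n = 3), overlapping with the TMZ-exposed cells (exact two-sided permutation p = 0.3).

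**Figure D4:**
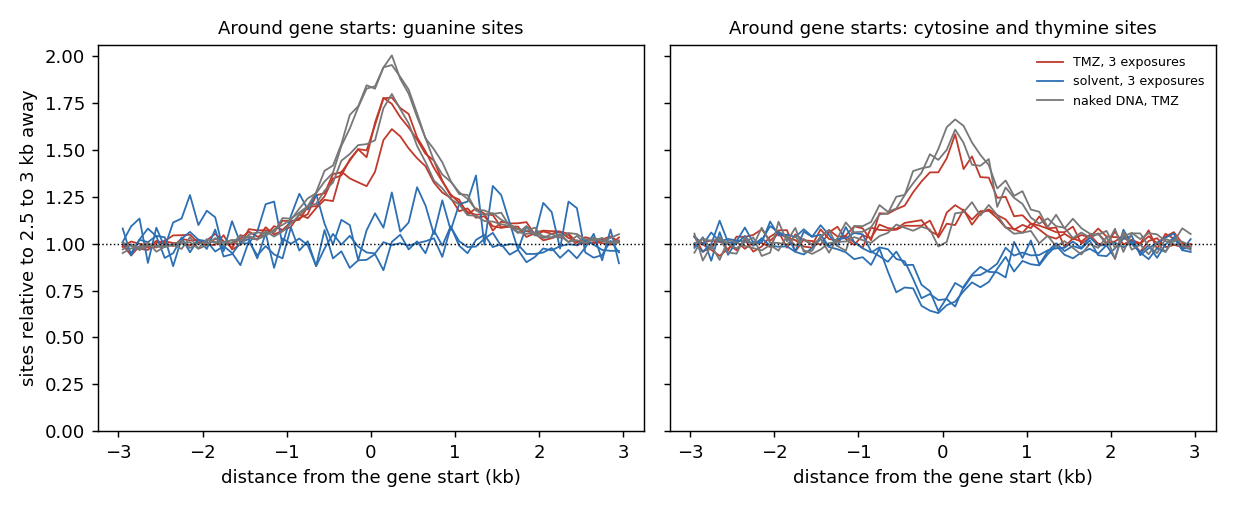
Density of guanine sites (left) and of cytosine and thymine sites (right) in steps of 100 bases within 3 kb of protein-coding gene starts, relative to the same library at 2.5 to 3 kb; each line is a library. TMZ and naked DNA lines peak just after the start for guanine. Solvent lines show no such peak for guanine, although replicate 3 reaches 1.36, and dip for cytosine and thymine.

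The transcribed strand carried fewer marked guanines than the coding strand, without correction for the guanines that each strand holds. The log2 ratio of template over coding strand, in genes whose strand is known, was -0.185, -0.181 and -0.183 in the TMZ replicates and -0.176, -0.026 and -0.034 in the solvent replicates. The arms did not overlap, by a narrow gap between TMZ replicate 2 and solvent replicate 1 (difference of means -0.104, exact two-sided permutation p = 0.1, adjusted p = 0.116). With no minimum score the arms overlapped, at -0.186, -0.179 and -0.180 under TMZ and -0.190, -0.029 and -0.041 under solvent (exact two-sided permutation p = 0.4). Within sets the difference was -0.156 in the second set (-0.154 without TMZ replicate 3) and -0.0084 for replicate 1. Solvent replicate 3, which shared no set with TMZ, stood near solvent replicate 2. Naked DNA gave -0.206, -0.159 and -0.151 and overlapped with the TMZ libraries. With cytosine sites of the same strand subtracted, the arms overlapped (-0.196 ± 0.048 and -0.166 ± 0.018, SD, n = 3 each, p = 0.5 by the exact permutation test). Thymine sites, which cannot carry O6-methylguanine, had lower ratios than guanine: -0.285, -0.226 and -0.280 under TMZ and -0.312, -0.174 and -0.173 under solvent. Adenine sites stood at 0.041, 0.052 and 0.016 under TMZ and 0.098, 0.213 and 0.229 under solvent. The part of base composition in these ratios was not tested.

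The genome was next divided into bins of 1 Mb, of which 2752 on the autosomes had enough guanine sites. Levels are relative to the library's own guanine sites, so higher and lower mean a larger or smaller part of them. They do not mean more or fewer marks, since the guanine share itself was higher under TMZ (58.2% against 20.2%). Guanine sites were higher under TMZ in 260 bins, 9.45% of those tested, and lower in 259, 9.41% (limma voom over all 24 cell libraries, adjusted p at or below 0.05), together 18.9%. The balance of directions changed with the processing, to 6 bins higher and 112 lower with no minimum score and to 369 higher and 245 lower with limma-trend on median-of-ratios sizes. The 3 libraries of each arm did not overlap in 1493 bins (54.3%), with TMZ lower in 729 (26.5%). Bins rich in genes were higher and gene-poor bins lower. The median log2 fold change was -0.28 over 250 bins without a protein-coding gene, 0.012 over 728 bins with 4 to 7 genes and 0.37 over 82 bins with more than 30. The called bins followed this, with 99 lower and 0 higher among bins without a gene and 34 higher and 1 lower among those with more than 30. Chromosome 22 had the highest median (0.30), followed by chromosomes 19 (0.21), 17 (0.20) and 20 (0.18), all dense in genes, and chromosome 4 the lowest (-0.14).

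The same regional pattern was present at cytosine and thymine. Their log2 fold change per bin correlated with that of guanine at r = 0.874 over 2748 bins, a description of bins that share libraries and base composition. It was -0.19 in bins without a gene and 0.30 in bins with more than 30. When guanine sites were taken relative to cytosine and thymine sites of the same bin and centred on each library's median, limma-trend called 0 of 2752 bins, with 130 at an unadjusted p of 0.05 or less and a smallest adjusted p of 0.107. The median then ran only from -0.047 in bins without a gene to 0.096 in those with more than 30. As for gene bodies, a link of cytosine and thymine sites to neighbouring guanines was not tested. The 0 calls therefore do not show that guanine had no pattern of its own. The guanine fold change also followed the share of guanine and cytosine among the sites of the other solvent libraries (r = 0.808 over 2752 bins), which stood in for the base composition of the bin.

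**Figure D5:**
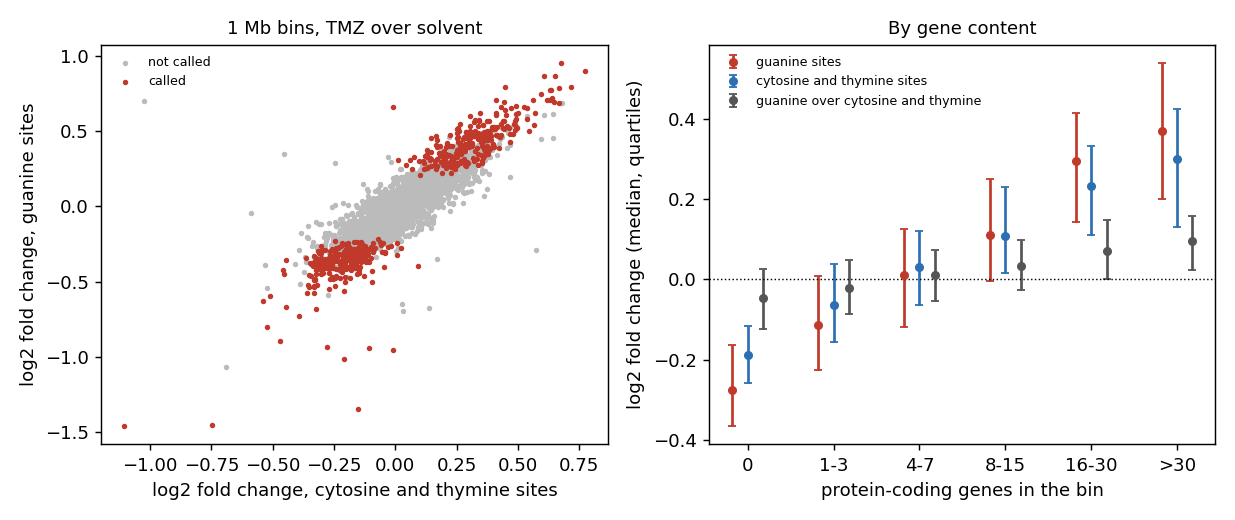
Left, log2 fold change of TMZ over solvent in each 1 Mb bin, guanine sites against cytosine and thymine sites, with bins called for guanine in red. Right, median and quartiles of the log2 fold change by number of protein-coding genes in the bin: guanine sites run from -0.28 to 0.37, cytosine and thymine sites from -0.19 to 0.30, and guanine relative to them from -0.047 to 0.096.

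Among called bins with a mean of at least 100 sites and no overlap between arms, 259 rose and 243 fell. The 5 of these that rose most held 19 to 47 protein-coding genes. The bin chr9:136000001-137000000, with 37 genes, held 588, 655 and 681 guanine sites per 1000000 in TMZ replicates 1, 2 and 3 and 313, 339 and 356 in the solvent replicates, with no overlap. Its log2 fold change was 0.95 ± 0.24 (SE, limma voom adjusted p = 0.0133), and 0.30 ± 0.14 (SE) relative to cytosine and thymine. The other 4 bins were chr16:1000001-2000000 (0.90), chr17:81000001-82000000 (0.87), chr16:88000001-89000000 (0.86) and chr9:133000001-134000000 (0.79). The one that fell most was chr2:89000001-90000000, with no protein-coding gene in the table, at 88.5, 93.1 and 86.8 sites per 1000000 under TMZ and 179, 117 and 122 under solvent. Its log2 fold change was -0.67 ± 0.12 (SE, limma voom adjusted p = 0.0032). The next were chr21:10000001-11000000 (-0.62, 1 gene), chr10:38000001-39000000 (-0.60, 2 genes), chr14:19000001-20000000 (-0.58, 10 genes) and chr4:49000001-50000000 (-0.58, 1 gene). The number of bin calls depended on 4 of the 6 libraries: without solvent replicate 1 there were 4 in all, without TMZ replicate 3 there were 19, without TMZ replicate 2 there were 60 and without TMZ replicate 1 there were 137. Without solvent replicate 2 there were 570 and without solvent replicate 3 there were 385, against 519 with all.

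Gene bodies gave fewer calls. Here too, rose and fell refer to a gene's part of the library's own guanine sites. Of 16470 genes tested, 152 rose (0.923%) and 318 fell (1.93%) under TMZ (limma voom over all 24 cell libraries, adjusted p at or below 0.05), together 2.85%. With limma-trend on median-of-ratios sizes 13 rose and 13 fell, so the excess of falls was not found there. The median SE of a gene's log2 fold change was 0.36, against 0.0997 for a bin, so a gene without a call may still differ. The arms did not overlap in 4425 genes (26.9%), with TMZ lower in 2494 (15.1%). Short genes leaned up and long genes down. The median log2 fold change was 0.23 over 5981 genes under 20 kb and -0.27 over 303 genes over 500 kb, of which 77 fell and 4 rose. Genes under 20 kb held a median of only 11 guanine sites over the 6 libraries. The filter asked for at least 10 sites in at least 3 libraries, so a short gene could enter through the larger TMZ lists alone. The part of this filter in the 0.23 was not tested. Relative to cytosine and thymine sites the 4 length classes had medians between -0.024 and 0.025, and limma-trend called 0 of 16470 genes (609 at an unadjusted p of 0.05 or less, smallest adjusted p 0.543). The median SE on that scale was 0.52, and limma-trend gave fewer gene calls than voom for guanine sites too. The 0 calls therefore do not show that single genes were alike on that scale. Without solvent replicate 1, there were 3 calls. Without solvent replicate 2 there were 202, without TMZ replicate 2 there were 154 and without TMZ replicate 3 there were 217. Without TMZ replicate 1 there were 510 and without solvent replicate 3 there were 382, against 470 with all.

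Among genes with a mean of at least 100 sites and no overlap between arms, 42 rose and 191 fell. LOC124905135 rose most, at 110, 125 and 117 guanine sites per 1000000 in TMZ replicates 1, 2 and 3 and 51.3, 48.9 and 28.2 in the solvent replicates. Its log2 fold change was 1.41 ± 0.34 (SE, limma voom adjusted p = 0.0137), on 3 to 15 sites per solvent library. DAGLA, which makes the endocannabinoid 2-arachidonoylglycerol and lies at chr11:61680391-61747001, stood at 102, 114 and 135 sites per 1000000 under TMZ and 48.0, 41.7 and 60.4 under solvent. Its log2 fold change was 1.29 ± 0.28 (SE, limma voom adjusted p = 0.0057), on 14, 11 and 7 sites in the solvent libraries. Others among the 10 were ARHGEF17 (log2 fold change 1.15), RSPH14 (1.10), CBFA2T3 (1.06), the retinoid X receptor gene RXRA (1.03), the mechanosensitive channel gene PIEZO1 (0.96), BIN1 (0.90) and BAHCC1 (0.87). These others held 3 to 32 sites per solvent library, since the minimum of 100 is a mean over both arms.

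The readthrough transporter gene SLCO1B3-SLCO1B7 fell most, at chr12:20815674-21091222. It held 153, 128 and 133 guanine sites per 1000000 in TMZ replicates 1, 2 and 3 and 323, 201 and 230 in the solvent replicates. Its log2 fold change was -0.89 ± 0.16 (SE, limma voom adjusted p = 0.0018). MEI4 (-0.87), needed for meiotic double-strand breaks, and SYCP1 (-0.86), a component of the synaptonemal complex, came next. The others were COPG2 (-0.83), HMGCLL1 (-0.82), the cytokine gene IL7 (-0.81), COX7B2 (-0.80), TSGA10 (-0.80), CCDC138 (-0.76) and STXBP5L (-0.76). The genes named here kept their sign relative to cytosine and thymine sites except PIEZO1 (-0.48), and none was called on that scale. That ratio holds the same guanine sites by which the genes were chosen, so a kept sign is no separate result.

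Long genes of 3 lists fell in part. Of 13 common fragile site genes tested, which break under replication stress, 7 fell and none rose, against 1.93% of all genes falling, and the median log2 fold change was -0.34, beside -0.0063 over all 16470 genes. All 13 are longer than 500 kb, and of all 303 genes of that length 25.4% fell, with a median of -0.27. LRP1B had 999, 928 and 1011 sites per 1000000 in TMZ replicates 1, 2 and 3 and 1471, 1249 and 1349 in the solvent replicates (log2 fold change -0.47 ± 0.095, SE, limma voom adjusted p = 0.0032). FHIT (-0.38), CTNNA3 (-0.47), DLG2 (-0.43) and NAALADL2 (-0.34) also fell, while WWOX (-0.065) and MACROD2 (-0.13) were not called. Of 18 neuronal adhesion and synapse genes 8 fell and none rose, with a median of -0.32, and all 18 are longer than 500 kb as well. CNTNAP2, an adhesion protein of axons, was among them (-0.40). Of 25 long, broadly transcribed genes 4 fell (COP1, BIRC6, NIPBL and VPS13B) and none rose, with a median of -0.28. Of these 25 genes 9 are longer than 500 kb and 15 between 100 and 500 kb, a length at which 5.17% of all genes fell. Relative to cytosine and thymine sites the medians of these lists were -0.048, -0.090 and -0.0010, with no call. They had medians of 748.5, 701.5 and 314 guanine sites per gene, against 30.2 over all genes tested.

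The repair genes and the drivers of glioblastoma gave no call in limma voom, and at an unadjusted p of 0.05 or less 0 of 8 mismatch repair, 0 of 7 alkylation repair and 2 of 14 driver genes passed, beside 3159 of all 16470 genes tested. Of 8 mismatch repair genes 4 had a log2 fold change above 0 and 4 below, with a median of -0.082. The MGMT gene itself, whose introduced copy lies in both arms, held 209, 228 and 232 sites per 1000000 under TMZ and 220, 241 and 286 under solvent (log2 fold change -0.10 ± 0.14, SE, limma voom adjusted p = 0.751). It was 1 of 7 alkylation repair genes tested, with a median of -0.098. Of 14 glioblastoma driver genes, 11 lay below 0, as did 8305 of all 16470 genes tested, and none was called (median -0.18).

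Gene families gave few calls. Of 249 zinc finger genes of chromosome 19, 4 fell (ZNF486, ZNF738, ZNF98 and ZNF569) and none rose, beside 1.93% of all genes tested that fell, with a median of -0.19. These 4 were among 149 with a length of 20 to 100 kb, at which 1.04% of all genes fell. Of 121 olfactory receptor genes with enough sites, out of 391, 5 fell and none rose, beside the same 1.93%. Their median was -0.38, on a median of 7.5 guanine sites. Of these genes 103 are under 20 kb and 4 of the 103 fell. At that length 0.251% of all genes fell, with a median of 0.23. Relative to cytosine and thymine sites the medians of the zinc finger and olfactory receptor genes were -0.093 and -0.12, with no call. Of 52 ribosomal protein genes and 3 histone genes tested, out of 76 and 19, none was called by limma voom (4 and 0 at an unadjusted p of 0.05 or less, where 3159 of all 16470 genes passed), and most histone genes were too short to hold enough sites.

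No bin or gene was called for a difference between the responses of MGMT and wild-type cells. The test of the difference between the responses called 0 of 2752 bins (limma voom, 42 at an unadjusted p of 0.05 or less) and 0 of 16470 genes (794 at an unadjusted p of 0.05 or less). The median SE of that difference was 0.15 for a bin and 0.54 for a gene on the log2 scale, so for most genes only large differences could have been called. In bins without a gene the median log2 fold change was -0.28 in MGMT cells and -0.27 in wild-type cells, and in bins with more than 30 genes 0.37 and 0.35.

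Mitochondrial DNA also had a higher guanine share under TMZ. Guanine made up 32.6%, 36.8% and 39.4% of mitochondrial sites in TMZ replicates 1, 2 and 3 and 23.8%, 21.6% and 21.5% in the solvent replicates, with no overlap. Naked DNA gave 37.7% ± 2.53 (SD, n = 3), in the TMZ range. Mitochondrial sites were a smaller part of all guanine sites under TMZ (0.130%, 0.076% and 0.117%, against 0.449%, 0.374% and 0.607%). The same order was found for sites at the other bases (0.298%, 0.210% and 0.274%, against 0.409%, 0.327% and 0.521%). A chromosome this small has few positions, each listed once, and the part of this in the shares was not tested. The lists held 3621, 4072 and 3320 mitochondrial guanines under TMZ and 3064, 2237 and 1594 under solvent.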

How the data were processed

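The authors deposited one list of sites per library, with columns for chromosome, 0-based position, strand, base and an integer score between 0 and 42. Per the submitters' processing notes the tools were FastQC 0.11.9, Trimmomatic 0.38 and 0.39, cutadapt, Bowtie2 2.3.5.1, GATK 4.2.0.0, SAMtools 1.12 and bedtools 2.29.2, on GRCh38 (hg38). The labels do not define the deposited score, which looks like an alignment score. It gives no read number, so a site counted 1 time and read depth per site is unknown. Rows on chromosomes 1 to 22 and M with a score of at least 30 were used.

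Neighbouring bases were read from RefSeq promoter windows (GRCh38.p14), which hold no chromosome 8, since no genome was used here. Gene bodies came from the RefSeq gene table, and strand was known for 15100 of 19122 genes. Single values were compared by exact permutation tests. Bins and genes with at least 10 guanine sites in at least 3 libraries were tested with limma 3.58.1 (voom, 8 group means of 24 cell libraries, trimmed-mean sizes, Benjamini-Hochberg adjustment) in R 4.3.3, after the script was tested on simulated data. Site levels are guanine sites per 1000000 guanine sites in the tested bins or genes of the library, with trimmed-mean sizes. P-values measure the spread between these libraries. Library sets joined pairs sharing sites at over 1.6 times the median pair, a threshold set with the data in view.

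Named bins and genes are the 5 and 10 with the largest fold change in each direction among those called, with a mean of at least 100 sites and no overlap; a few genes that the rule or the lists hold are not reported here. Gene lists are given by counts and medians. The members, lists and comparisons were chosen with earlier results of these data known. The 3 promoters, the start-site and five-base profiles and the pairs by distance and on the autosomes alone were added after the data were seen. Alternatives covered the score minimum, thinning, filters, normalisation, base counted, replicate block and left-out libraries.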

Additional observations from a re-analysis of the deposited data

How the results depend on the processing

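Guanine share, 5′ purine share, close pairs, gene-body ratio and strand ratio kept their direction under the alternatives run with 1 exception: close pairs without thinning were higher under TMZ by 1.00 points. On the autosomes alone, an alternative chosen after seeing the data, close pairs differed by only -0.0303 points. Leaving out a replicate number gave differences of 35.9 to 41.8 points for guanine share, 22.6 to 24.3 points for 5′ purines, -0.301 to -0.184 points for close pairs, 0.139 to 0.147 for the gene-body log2 ratio and -0.152 to -0.0789 for the strand log2 ratio. Against 519 bin and 470 gene calls, the 6 libraries alone gave 1314 bins and 1204 genes with voom, and 1123 and 186 with limma-trend. Limma-trend with median-of-ratios sizes gave 26 genes (13 higher and 13 lower, against 152 and 318) and 614 bins (369 and 245, against 260 and 259). No minimum score gave 118 bins (6 higher and 112 lower), cytosine and thymine sites in place of guanine gave 942 bins (388 shared), and guanine over cytosine and thymine gave 0 of each. Single libraries left out gave 4 to 570 bins and 3 to 510 genes, and both libraries of a replicate number 1 to 46 bins and 5 to 146 genes. The strand ratio overlapped between arms with no minimum score (-0.0950). The cause of these shifts was not tested. Same-numbered libraries deviated together over bins at r = 0.33, 0.16 and 0.079, and libraries of unlike number at -0.25 to 0.14. TMZ replicate 3 correlated best with solvent replicate 2 (0.14). The main fit did not take the number as a pairing, a choice that these values do not settle. A replicate block in the 6 libraries gave 1500 bins and 1824 genes, and in 24 libraries 715 bins and 452 genes. For single values a block cannot move the differences, since each replicate number holds 1 library of each arm. They were 38.0 points for guanine share, 23.4 for 5′ purines, -0.253 for close pairs, 0.14 and -0.10 for the gene and strand ratios, at the smallest sign-flip p of 0.25. Depth limits genes with few sites: solvent replicate 3 had 262637 guanine sites.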
